A study of Mus musculus with 2 samples.

Results

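T cells of the mouse periodontium were described from 2 single-cell libraries, 1 of ligature-induced periodontitis (LIP) and 1 untreated control. A kept cell counted as a T cell when at least 2 of the 5 genes Cd3e, Cd3d, Cd3g, Trbc2 and Trdc had a unique molecular identifier (UMI, 1 captured transcript), Cd79a had none and S100a8 with S100a9 took under 2% of its UMIs. Kept cells had 200 to 7500 genes, at most 60000 UMIs and at most 10% mitochondrial UMIs. The rule found 77 T cells among 1819 kept cells, 25 of 936 in the LIP library and 52 of 883 in the control library. The mice were wild-type C57BL/6 aged 8 weeks, cells of 5 mice were pooled per library before sequencing, and the LIP tissue was taken 7 days after the ligature was placed. Gingiva and the surface of the alveolar bone were digested together, so a gingival T cell could not be told from one at the bone surface. Each condition had 1 library, no value below carries a p-value, and every interval is an exact 95% interval that covers counting error only. No T cell barcode was shared between the libraries (0), against 1 among all kept cells.

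T cells recognise antigen through a receptor built from alpha and beta chains or from gamma and delta chains, held in the membrane by the CD3 proteins. In barrier tissues such as the gingiva, gamma-delta T cells are a known early source of interleukin-17A, a cytokine that draws neutrophils and acts on epithelium, fibroblasts and bone-forming cells. Alpha-beta T cells include helper cells with CD4, cytotoxic cells with CD8 and naive cells that recirculate through lymph nodes. The delta constant gene Trdc (chr14:54142851-54148868, plus strand, GRCm38) lies inside the alpha locus, 71652 bases before the alpha constant gene Trac (chr14:54220521-54224206, plus strand), and is cut out when alpha rearranges. A cell with Trdc and no Trac UMI is called Trdc-only here, and one with Trac and no Trdc UMI is called Trac-only.

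The label was checked first, since the rule needs only 2 UMIs. Of the 25 LIP T cells, 9 had UMIs of all 5 rule genes, 10 had 4, 0 had 3 and 6 had 2. Among the 52 control T cells these numbers were 7, 31, 8 and 6. Of the cells with 3 or more rule genes, 1 of 19 in LIP and 1 of 46 in control held over 1% of their UMIs in markers of another cell type. Their keratinocyte share was low, with a median of 0.00791% of UMIs in 7 keratinocyte markers in the 19 LIP cells and 0.0280% in the 46 control cells, and with 1 LIP cell at 1.63% that held 310 Krt14 next to 47 Trdc and 32 Il17a UMIs. Most of the cells with exactly 2 rule genes went against the label. Of them, 4 of 6 in the LIP library and 3 of 6 in the control library held over 1% keratinocyte UMIs, up to 3.13% in each library, and their median depth was 31720.5 and 19970 UMIs against 8546 and 6544.5 in the other T cells. Other cells with 2 rule genes carried genes of cytotoxic or natural killer lymphocytes. A LIP cell held 101 UMIs of Gzma, a granule protease, next to 16 of Trbc2. Another held 19 of Trbc1, 12 of Gzma and 8 of Xcl1 with 1 of Trdc. In the control library a cell with 38 Xcl1 and 38 Top2a UMIs had 1 Trdc UMI. Most counts are therefore given for all T cells and again for those with 3 or more rule genes, a split chosen among the alternatives.

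**Figure D1:**
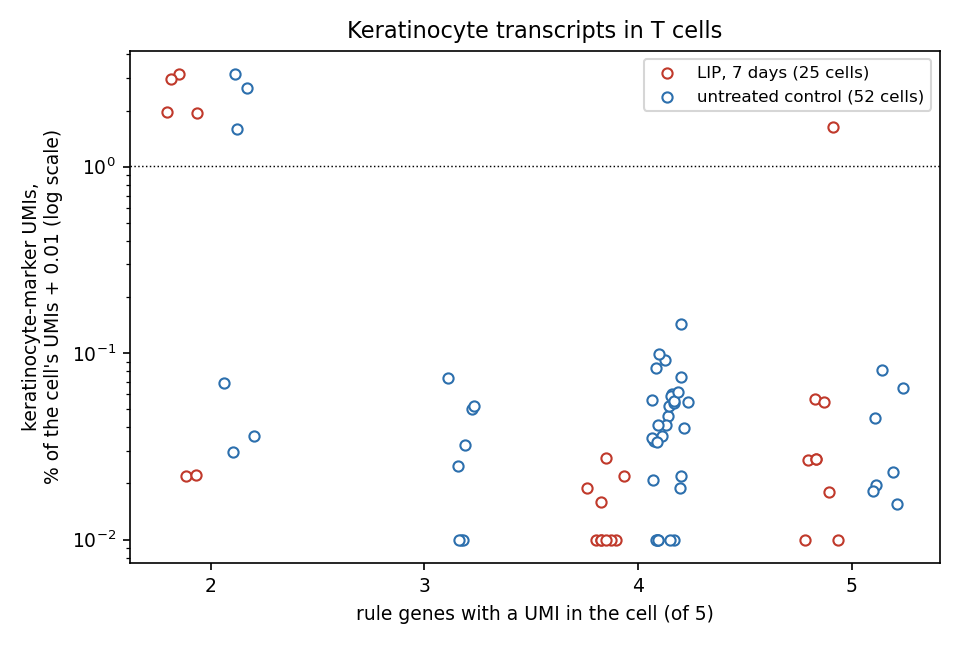
Share of each T cell's UMIs in 7 keratinocyte markers (vertical axis, percent plus 0.01, log scale) against the number of rule genes with a UMI (horizontal axis; points are spread sideways for visibility). Above the dotted line at 1% lay 4 LIP and 3 control cells with 2 rule genes and 1 LIP cell with 5.

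Summed over all T cells, the keratinocyte markers made 11405 CPM in LIP, more than the 6352 CPM of the other kept LIP cells, and 4071 CPM in control against 14841 CPM in the other kept control cells. Krt14 led in both, with 2531 and 1005 UMIs. A single control Trac-only cell with 3 rule genes, which thus stays in the counts with 3 or more, held 95.6% of the 450 Cd74 UMIs of the control T cells and most of their MHC class II UMIs. The complement genes C1qa, C1qb and C1qc, which define macrophages, had no UMI in the T cells of either library, and the 8 macrophage markers summed to 27.4 counts per 1000000 UMIs (CPM) in LIP and 45.8 in control T cells against 3136 and 1081 in the other kept cells. The 6 B cell markers summed to 22.5 and 227 CPM, with Ms4a1 at 0 in both. Neutrophil markers summed to 1694 CPM in LIP and 144 in control T cells, led by S100a9 with 363 and 41 UMIs, and Ly6g was at 0 in LIP. Of the LIP S100a9 UMIs 81.5% came from 1 cell. Haemoglobin and other erythroid genes summed to 132 and 435 CPM, with Hbb-bs leading. Scrublet, a doublet caller, marked 1 LIP and 4 control kept cells, 0 and 1 of them T cells, and this small number gives it little weight. Natural killer and innate lymphoid markers, 7 genes that T cells partly share, summed to 82.3 and 117 CPM, led by Klre1 in LIP and by Gata3 in control. Fibroblast and osteogenic markers summed to 437 and 227 CPM against 18506 and 7781 in the other kept cells. Dendritic cell markers gave 32.4 and 1727 CPM, led by Cd74 in both, mural cell markers 84.8 and 29.1, endothelial 32.4 and 41.6, Schwann cell 9.98 and 29.1 and plasma cell markers 0 and 6.24 CPM. Mast cell markers had 6 and 16 UMIs. What these transcripts contribute to the differences below was not tested.

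At the edges of the rule, 27 LIP cells had at least 2 rule genes and 2 were left out for S100a8 and S100a9. The highest S100a8 and S100a9 share in a LIP T cell was 0.988% and the lowest in a cell left out was 2.31%. That cell held 42 Trdc, 9 Cd3e and 222 Il17a UMIs. In the control library 54 cells had at least 2 rule genes, and 2 were left out for a Cd79a UMI. Exactly 1 rule gene was found in 102 LIP and 173 control cells, mostly Trbc2 (70 and 163 cells). No barcode over the mitochondrial limit met the remaining terms of the rule (0 of 197 and 0 of 196).

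T cells made up 2.67% of kept LIP cells (1.74 to 3.92) and 5.89% of kept control cells (4.43 to 7.65). Among cells under 2% S100a8 and S100a9, which leaves most neutrophils out, the shares were 4.20% (2.74 to 6.14) and 6.26% (4.71 to 8.13), and these intervals overlapped. Cells at or above 2% were 36.4% of the LIP and 5.89% of the control library. B cells, defined by Cd79a with another B cell gene, were 2.14% of kept LIP cells and 18.3% of kept control cells, so that there were 1.25 T cells per B cell in LIP and 0.321 in control. A share depends on how many cells of every other kind were captured, and that cannot be told apart from a difference in T cell number.

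The make-up of the T cells differed between the libraries. Trdc-only cells were 12 of 25 (48.0%, 27.8 to 68.7) in LIP and 7 of 52 (13.5%, 5.59 to 25.8) in control. Trac-only cells were 9 of 25 (36.0%, 18.0 to 57.5) in LIP and 38 of 52 (73.1%, 59.0 to 84.4) in control. UMIs of both genes were found in 2 LIP and 3 control cells and of neither in 2 and 4. With 3 or more rule genes the counts were 9 Trdc-only and 9 Trac-only of 19 in LIP, and 5 and 37 of 46 in control. After every cell was thinned to 1000 UMIs, Trdc-only cells were 40.0% (21.1 to 61.3) and 11.5% (4.35 to 23.4) of T cells and Trac-only cells 8.00% (0.984 to 26.0) and 46.2% (32.2 to 60.5). Before thinning the Trdc-only and Trac-only intervals of the libraries lay apart, and after it those of Trac-only cells still did while those of Trdc-only cells overlapped. The intervals of the cells with both or neither gene overlapped before thinning. With 1 library a condition the spread between mice is unknown.

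Trdc UMIs fell into high and low cells with nothing between. In LIP 10 cells held 22 to 166 Trdc UMIs and 4 others held 1, and in control 7 cells held 11 to 138 and 3 held 1. The 4 LIP cells with 1 Trdc UMI were all among those with 2 rule genes. Outside the T cells Trdc was found in 1.54% of kept LIP cells and 0.241% of kept control cells, and in 9.09% of the 55 LIP macrophages (median 17481 UMIs per cell) but in none of the 22 control macrophages (0). After thinning to 1000 UMIs it was found in no macrophage and in 40.0% and 13.5% of LIP and control T cells. Since Trdc is a rule gene, its share in T cells was partly fixed by the rule, and whether the single Trdc UMIs came from free RNA was not tested. The 10 LIP and 7 control cells with more than 1 Trdc UMI and more Trdc than Trac UMIs are called Trdc-high below, a class formed after the values were seen. It includes the LIP cell with 310 Krt14 UMIs. Krt14 summed to 2135 CPM in LIP and 128 CPM in control Trdc-high cells, with 98.7% of the LIP UMIs from this cell. What this cell adds to the other Trdc-high sums was not tested. All 19 LIP cells with 3 or more rule genes were either Trdc-high (10) or Trac-only (9).

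**Figure D2:**
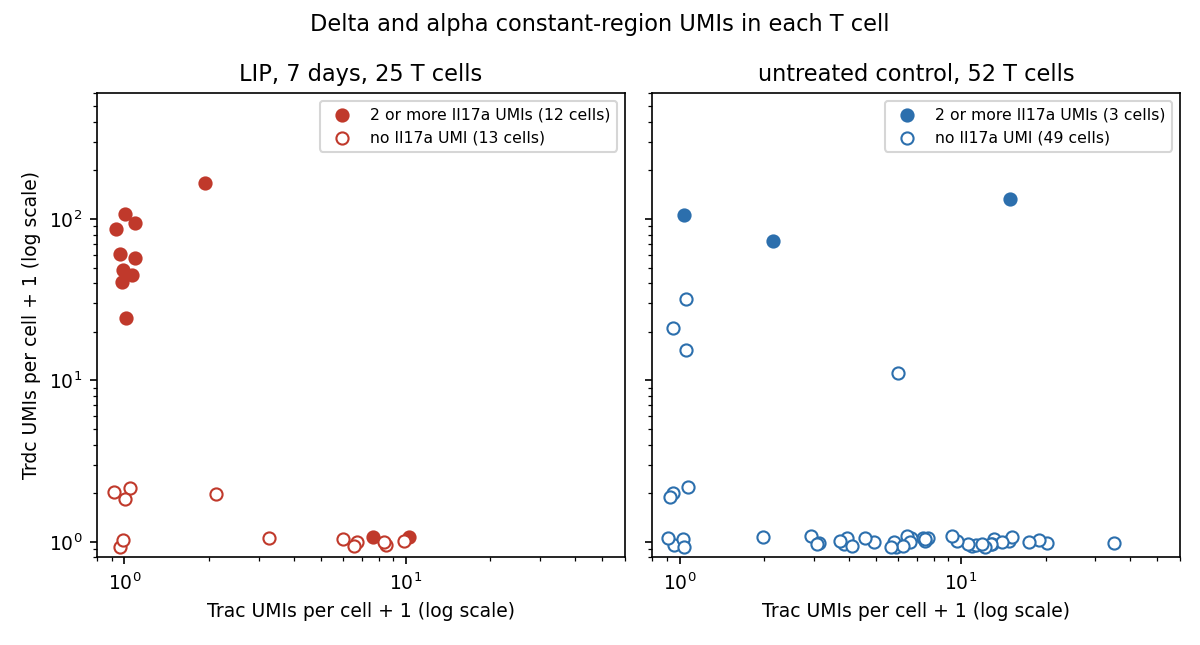
Trdc UMIs (vertical axis) against Trac UMIs (horizontal axis) of every T cell, each plus 1 on a log scale with slight random spread, LIP left and control right. Filled points are cells with 2 or more Il17a UMIs, 12 in LIP and 3 in control, and no T cell held exactly 1.

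The Trdc-high cells carried the other parts of a gamma-delta receptor. Trdv4, a delta variable gene (chr14:54074905-54075515), had UMIs in all 10 LIP cells (1 to 25) and in 6 of 7 control cells (up to 15). Tcrg-C1, a gamma constant gene (chr13:19214103-19217024), had UMIs in all 10 LIP cells (1 to 20) and all 7 control cells (6 to 25). Of 6 gamma variable genes in the table, Tcrg-V6 was the only one seen in the LIP cells, with 1 UMI in each of 4 cells, and control cells showed 3 different genes in 4 cells. The gamma constant genes Tcrg-C1 and Tcrg-C2 are near identical, so UMIs of one may belong to the other. Neither Trav nor Trbv variable genes had a UMI in any Trdc-high cell (0 of 10 and 0 of 7). Trbc2, which the rule uses, was still found in 9 of 10 and 7 of 7 of these cells, summing to 85 and 81 UMIs. Cd163l1, a scavenger receptor of gamma-delta T cells, was found in 9 of 10 LIP and 6 of 7 control cells at 292 and 361 CPM, and in no Trac-only cell of either library (0 UMIs).

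Il17a marked the Trdc-high cells of the LIP library. All 10 held it, with 7, 12, 25, 32, 49, 70, 104, 174, 241 and 531 UMIs at depths of 4467 to 36048 UMIs per cell. In single cells this was 888 to 29402 CPM, with a median of 4054. The cell with 531 UMIs held 42.7% of their 1245. In control 3 of the 7 Trdc-high cells held Il17a, with 11, 11 and 82 UMIs, and 4 held none (0). Summed over cells the level was 8464 CPM in LIP and 1210 CPM in control Trdc-high cells, a log2 ratio of 2.80 (2.52 to 3.11), where every log2 ratio has 10 CPM added to both levels and its interval is that of the plain ratio, and 82 of the 104 control UMIs (78.8%) came from 1 cell. The ranges of the libraries overlapped, since 6 of the LIP cells held fewer Il17a UMIs than the 82 of the highest control cell. In Trac-only cells Il17a was found in 2 of 9 LIP cells (15 and 57 UMIs) and in 0 of 38 control cells, at a median of 6359.5 UMIs per cell, so that up to 9.25% of such cells could yield a UMI at this depth. The share that expresses the gene is not bounded by this. Both LIP cells also held Tcrg-C1 (8 and 7 UMIs) and neither held Cd4 or Cd8 (0 UMIs). The LIP sum in Trac-only cells was at least 85.8-fold higher than the control floor of 3 counts, with 79.2% from 1 cell.

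In all, T cells held 1317 of the Il17a UMIs of kept LIP cells (84.4%), and the cell left out for S100a8 and S100a9 held a further 14.2%. The remaining UMIs were single ones in 21 cells. After thinning to 1000 UMIs, Il17a was found in 40.0% of LIP and 3.85% of control T cells, against 48.0% and 5.77% before, and in no B cell and no macrophage of either library (0). Before thinning, 1 LIP macrophage had held 1 UMI.

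Il17a (chr1:20730905-20734496, plus strand, GRCm38) is a protein-coding gene, and the 250 bases before its RefSeq start (chr1:20730655-20730904, plus strand, GRCm38.p6) are shown because every LIP Trdc-high cell held this gene. Capitals mark AGGTCA, the core of an element that nuclear receptors such as Rora bind, read here as its reverse complement. It begins 120 bases before the start. Searched on both strands, the 6 letters were found in the same window of 14.0% of 32851 promoters, so that a match is common and is a description only.

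Il17a: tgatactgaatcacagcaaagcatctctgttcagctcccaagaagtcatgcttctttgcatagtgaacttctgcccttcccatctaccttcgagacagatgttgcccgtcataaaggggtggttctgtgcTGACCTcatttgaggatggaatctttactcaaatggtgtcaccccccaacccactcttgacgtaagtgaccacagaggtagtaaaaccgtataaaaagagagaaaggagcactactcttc

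Rora itself was found in all 10 LIP Trdc-high cells at 490 CPM and in 3 of 7 control cells at 209 CPM, and those 3 were the cells with Il17a. The neighbouring Il17f (chr1:20777146-20790617, minus strand) lay 42649 bases away, and 3 LIP Trdc-high cells held 13 UMIs of it, 11 of them in 1 cell, against none in control (0).

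Beyond Il17a, listed genes of activated and resident T cells stood in both directions in the Trdc-high cells. Tnfrsf9, the costimulatory receptor 4-1BB, was found in all 10 cells (3 to 24 UMIs), Cxcr6, a chemokine receptor of tissue-resident lymphocytes, in all 10 (4 to 27 UMIs), and neither level differed by 2-fold from control (1299 against 1071 CPM and 782 against 873 CPM). Areg, which encodes the epithelial growth factor amphiregulin, was found in 7 LIP cells with 209 UMIs and in 2 control cells with 7 UMIs, a log2 ratio of 3.97 (3.06 to 5.46). Il2ra, the interleukin-2 receptor alpha chain, stood at 551 against 105 CPM, Ctla4, an inhibitory receptor, at 558 against 46.6 CPM, Hif1a, a factor of the oxygen response, at 544 against 58.2 CPM, and Il7r at 252 against 46.6 CPM. Il1r1, the interleukin-1 receptor, had 19 UMIs in 7 LIP cells and 1 in 1 control cell, and the decoy receptor Il1r2 had 32 UMIs in 8 LIP cells and none in control, at least 6.23-fold higher in LIP. After thinning Il1r2 was found in 8.00% of LIP T cells and in 29.7% of the other kept LIP cells. Its level before thinning was 252 CPM in all LIP T cells, 841 CPM in the LIP Trac-only cells (64 UMIs, 35.9% of them in 1 cell) and 293 CPM in the other kept cells, and the part of free RNA was not tested. Irf4, a factor induced by receptor signals, had 22 UMIs in 7 LIP cells and none in control, at least 4.28-fold higher. For Areg, Il2ra, Ctla4, Il7r and Irf4, the highest cell held between 24.3% and 35.8% of the LIP UMIs, and for Hif1a 45%. Lower in LIP were Nr4a3, an early gene of receptor stimulation, with 5 UMIs against 32, Nr4a2 at 88.4 against 337 CPM, the G protein regulators Rgs1 at 979 against 3468 CPM and Rgs2 at 367 against 1815 CPM, and Nr4a1 at 143 against 314 CPM. Of the control UMIs 57.4% of Rgs1, 44.8% of Nr4a2, 40.6% of Nr4a3 and 32.7% of Rgs2 were in 1 cell. Icos stood at 292 against 570 CPM. As background, the B cells of both libraries had no UMI of Areg, Cxcr6 or Gzmc (0), while Hif1a stood at 63.3 and 53.9 CPM in B cells and at 310 and 66.6 CPM in macrophages of LIP and control. Hif1a was thus also higher in LIP macrophages.

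**Figure D3:**
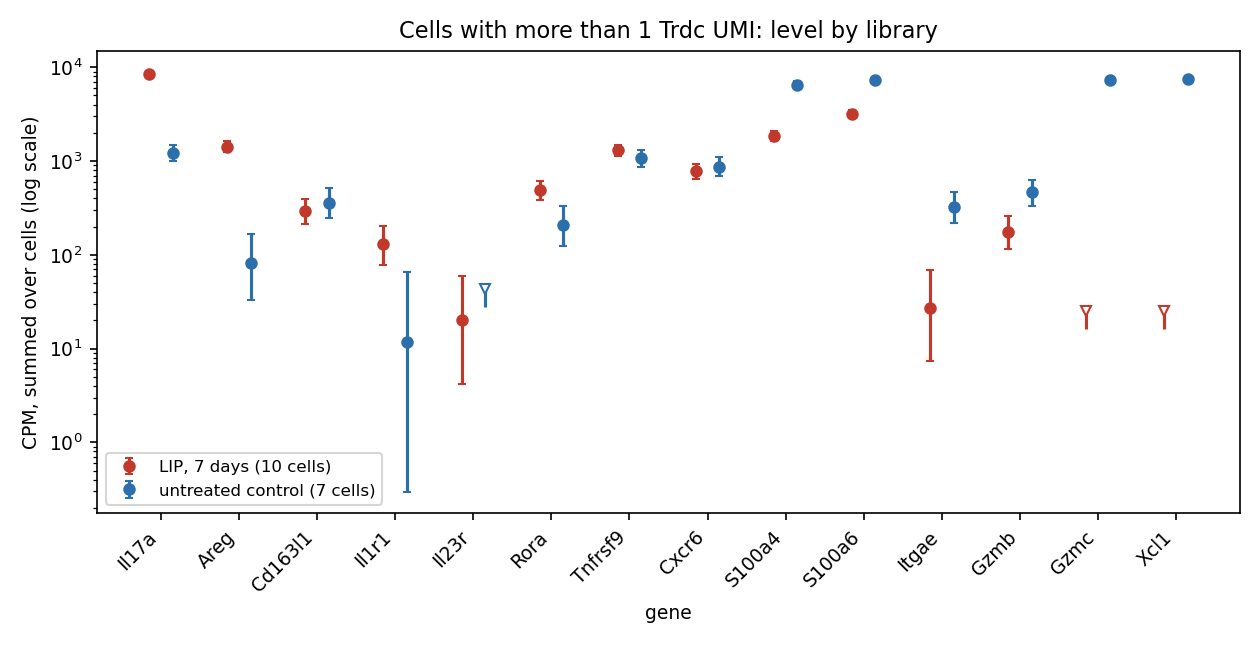
Level of 14 genes summed over Trdc-high cells (10 LIP, 7 control) in CPM on a log scale, with exact 95% counting intervals. Open triangles are upper limits where no UMI was found (Il23r in control, Gzmc and Xcl1 in LIP); Il17a and Areg stood higher in LIP, S100a4, S100a6, Itgae, Gzmc and Xcl1 higher in control.

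The control Trdc-high cells were of more than 1 kind. The 3 cells with Il17a held none of Gzmc, Xcl1, Lck and Klrd1. Of the 4 without Il17a, 3 held Gzmc, a granzyme, with 14, 96 and 521 UMIs and the same 3 held Xcl1, a chemokine of cytotoxic lymphocytes, with 91, 21 and 535 UMIs. All 4 held Klrd1, a receptor of natural killer cells, and Lck, the kinase that starts receptor signalling. A further control cell, with 1 Trdc UMI, 18 of Cd3g and 5 of Cd163l1, held 293 Gzmc and 120 Xcl1 UMIs. No LIP Trdc-high cell held Gzmc or Xcl1 (0 UMIs), so the control sums of 7343 and 7530 CPM were at least 360-fold and 369-fold above the LIP floor of 3 counts, with 82.6% and 82.7% from 1 cell. Nkg7, a granule membrane protein, was at 2397 CPM in control and 40.8 CPM in LIP, where all 6 UMIs were in 1 cell. Klrd1 overlapped, with 8 UMIs in 5 of 10 LIP cells against 64 in 4 of 7 control cells. Itgae, the integrin that holds lymphocytes in epithelium, was found in 7 of 7 control and 3 of 10 LIP cells at 326 and 27.2 CPM. S100a4 and S100a6, calcium-binding proteins, had UMIs in all 7 control cells at 6529 and 7332 CPM and in 9 and 10 LIP cells at 1863 and 3182 CPM. S100a4 and S100a6 are expressed by macrophages too, at 3011 and 2854 CPM in LIP, and the part of free RNA was not tested.

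Trac-only cells were diverse. Cd4 without Cd8 was found in 4 of 9 LIP and 17 of 38 control cells (44.4%, 13.7 to 78.8, and 44.7%, 28.6 to 61.7), and Cd8a or Cd8b1 without Cd4 in 1 of 9 and 10 of 38. Neither coreceptor had a UMI in 4 LIP and 9 control cells, at median depths of 7064 and 6359.5 UMIs per Trac-only cell, and at this depth a missing UMI does not show that a coreceptor was absent. Trav variable genes were seen in 10 control cells, 9 different genes among 128 in the table, and Trbv genes in 10 control cells, 10 different genes among 35. No Trav gene was seen in more than 2 cells. In LIP 2 cells showed 2 Trav genes and 2 showed 2 Trbv genes. Foxp3, the factor of regulatory T cells, was found in 1 LIP cell (6 UMIs) and 5 control cells (1 to 4 UMIs each). The constant genes Trbc1 and Trbc2 are near copies, so UMIs of one may belong to the other.

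Some genes of naive and recirculating cells stood lower in the LIP Trac-only cells and others did not. Ccr7, a chemokine receptor of naive cells, had 4 UMIs in 1 of 9 LIP cells and 133 in 22 of 38 control cells. The naive cell factors Lef1 and Tcf7 had 6 in 3 and 99 in 25, and 3 in 2 and 92 in 25. Their levels in LIP and control were 52.6 and 489 CPM for Ccr7, 78.9 and 364 CPM for Lef1 and 39.4 and 338 CPM for Tcf7. Klf2 stood at 105 against 221 CPM, and S1pr1 and Satb1 had log2 ratios of -0.75 and -0.66, each with an interval that included no difference, and Il7r, on the same list, was higher in LIP at 815 against 280 CPM. In B cells of LIP and control, Ccr7 stood at 271 and 401 CPM and Lef1 at 45.2 and 1.69 CPM. B cells were more frequent in the control library, and the part of free RNA was not tested.

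Higher in the LIP Trac-only cells were Tnfrsf9 with 52 UMIs in 6 cells against 3 in 2 (log2 ratio 5.04), Pdcd1, the inhibitory receptor PD-1, with 58 in 5 against 20 in 5 (3.21), Il2ra with 24 in 5 against 8 in 4 (3.05), and Cxcr6 with 58 in 5 against 39 in 8 (2.33). Rora stood at 592 against 103 CPM and Batf, a factor of activated T cells, at 329 against 73.6 CPM. For Tnfrsf9, Pdcd1, Il2ra and Cxcr6 the highest cell held 41.4% to 50% of the LIP UMIs, and for Rora and Batf 31.1% and 32%. Tnfrsf9 thus was higher in LIP among Trac-only cells and near its control level among Trdc-high cells. Dividing cells were few, as Top2a, a gene of DNA replication and mitosis, had 70 UMIs in 6 control Trac-only cells, 62 of them in 1 cell.

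**Figure D4:**
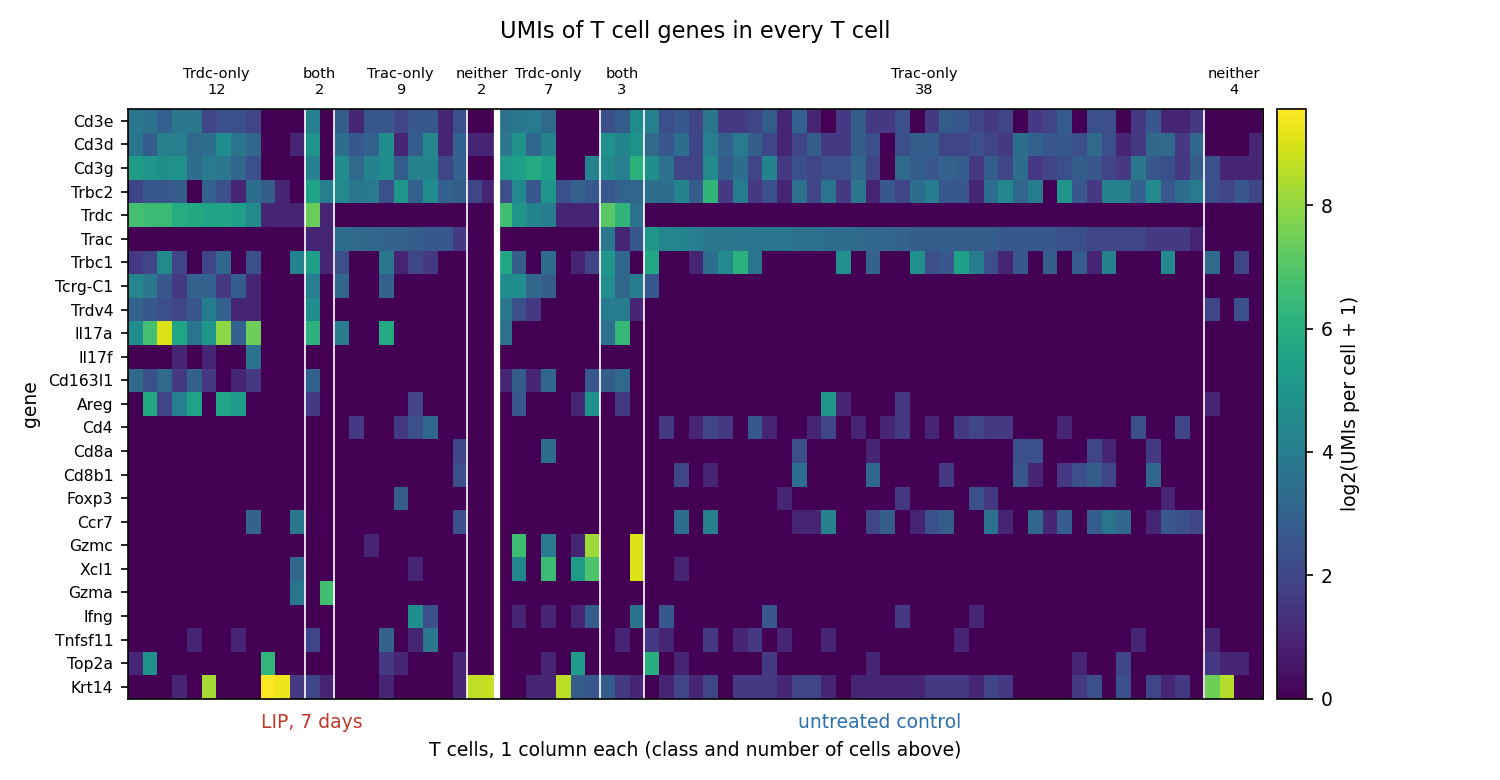
UMIs of 25 genes (rows) in every T cell (columns), as log2 of UMIs plus 1 in colour. Cells are grouped by library and class, with the number of cells above each group; Il17a fills the LIP cells with high Trdc, Ccr7 is spread over the control Trac-only cells, and high Krt14 falls in cells without Trac.

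Trdc-only and Trac-only cells were then set side by side within each library, and a gene was counted when it was at least 2-fold apart the same way in both, with 10 CPM added. The classes were chosen on Trdc and Trac themselves, so these genes are no result. Of 6912 genes with at least 10 UMIs, 428 (6.19%) were higher in Trdc-only and 265 (3.83%) higher in Trac-only cells. Krt14, Krt5, Dsp, Perp, Lgals7, S100a14 and Sdc1 of epithelium were among the 10 leading genes of the Trdc-only side, and their UMIs lay in few cells. Of Krt14, LIP Trdc-only cells with 1 Trdc UMI held 755 and 639 UMIs, the cell with 47 Trdc UMIs held 310, and every other one at most 2. Without the cells of 2 rule genes the count was lower. With 3 or more rule genes 5841 genes were tested, and 161 (2.76%) were higher in Trdc-only and 269 (4.61%) higher in Trac-only cells. Led by Trdc, Trdv4, Cd163l1 and Il17a, this set next held Tcrg-C4, Map3k8, Sdf2l1, Bcl2a1a, Spry2 and Errfi1. On the Trac-only side Trac was followed by Ifi27l2a, Gm8369, Cd4, Cd6, Dusp10, Gramd3, Etnk1 and Kbtbd11.

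By function, receptor genes separated the strict classes in part by definition, since the classes were chosen on Trdc and Trac. Of 12 receptor and CD3 genes 5 were higher in Trdc-only cells and 1 (Trac) in Trac-only cells of both libraries. Of 8 naive genes 7 were higher in Trac-only cells of both libraries (among them Lef1, Tcf7, S1pr1, Klf2, Il7r and Satb1) and 0 in Trdc-only cells. Over all genes these shares were 4.61% and 2.76%. With all Trdc-only and Trac-only cells, where the shares of all genes were 3.83% higher in Trac-only and 6.19% higher in Trdc-only cells, 6 of 8 naive and 6 of 15 TCR signalling genes were higher in Trac-only cells and 0 in Trdc-only cells, and of 22 type 17 genes 3 were higher in Trdc-only and 2 in Trac-only cells. The counts that follow are again of cells with 3 or more rule genes. Of 15 TCR signalling genes 4 were higher in Trac-only cells (Cd5, Cd6, Cd28 and Fyb) and 0 in Trdc-only cells. Cd6, a costimulatory receptor, had 17 UMIs in 6 of 9 LIP and 36 in 19 of 37 control Trac-only cells and none in Trdc-only cells of either library (0). Of 22 type 17 genes tested, 2 were higher in Trdc-only cells (Il17a and Cd163l1) and 1 in Trac-only cells (Il7r), so most genes of this list did not separate the classes in both libraries. Among 13 type 1 and cytotoxic genes 1 was higher in Trac-only cells (Ccl5), and of 12 regulatory genes Areg was higher in Trdc-only and Foxp3 and Tnfrsf4 in Trac-only cells. The adapter Lat, found in all 10 LIP Trdc-high cells, was present in both classes.

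For all T cells of LIP against control, 7770 genes with at least 10 UMIs were compared, and 559 (7.19%) were at least 2-fold higher and 471 (6.06%) at least 2-fold lower in LIP, with a median log2 ratio of 0.06. Among T cells with 3 or more rule genes 6165 genes were compared, 614 (9.96%) were higher and 524 (8.5%) lower, with a median of 0.07. These sums mix the shift in classes with levels within a class. Il17a led the genes higher in LIP (log2 ratio 3.86, 3285 against 216 CPM), followed by S100a8, Wfdc2, Hpgd, Fabp5, AA467197, S100a9, Batf3, Palld, Il1r2, Slc7a11 and Cald1. Of these, S100a8, S100a9, Hpgd and Cald1 owed 83.6%, 81.5%, 69.7% and 79.3% of their LIP UMIs to 1 cell. Fabp5, a fatty acid binding protein, was at 1711 against 131 CPM in all T cells and 726 against 51.5 CPM with 3 or more rule genes, where 78.4% of LIP UMIs were in 1 cell. Of its 686 LIP UMIs, 162 were in cells with 3 or more rule genes. Batf3, a transcription factor related to Batf, had 64 UMIs in 8 LIP cells and 4 in 3 control cells, and AA467197, named here by its symbol, 64 in 10 and 2 in 2. No cell held more than 34.4% of the LIP UMIs of Batf3 or AA467197. In cells with 3 or more rule genes, Il2ra (471 against 46.0 CPM), Dgat1, a triglyceride-forming enzyme (627 against 73.1 CPM), Slc15a3, the microRNA host Mir155hg, Bcl2a1a, Itgav and Krt14 joined the 12 leading genes, and AA467197 (4.55) stood before Il17a (4.34). Of the Krt14 UMIs of these LIP cells 98.1% were in 1 cell.

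**Figure D5:**
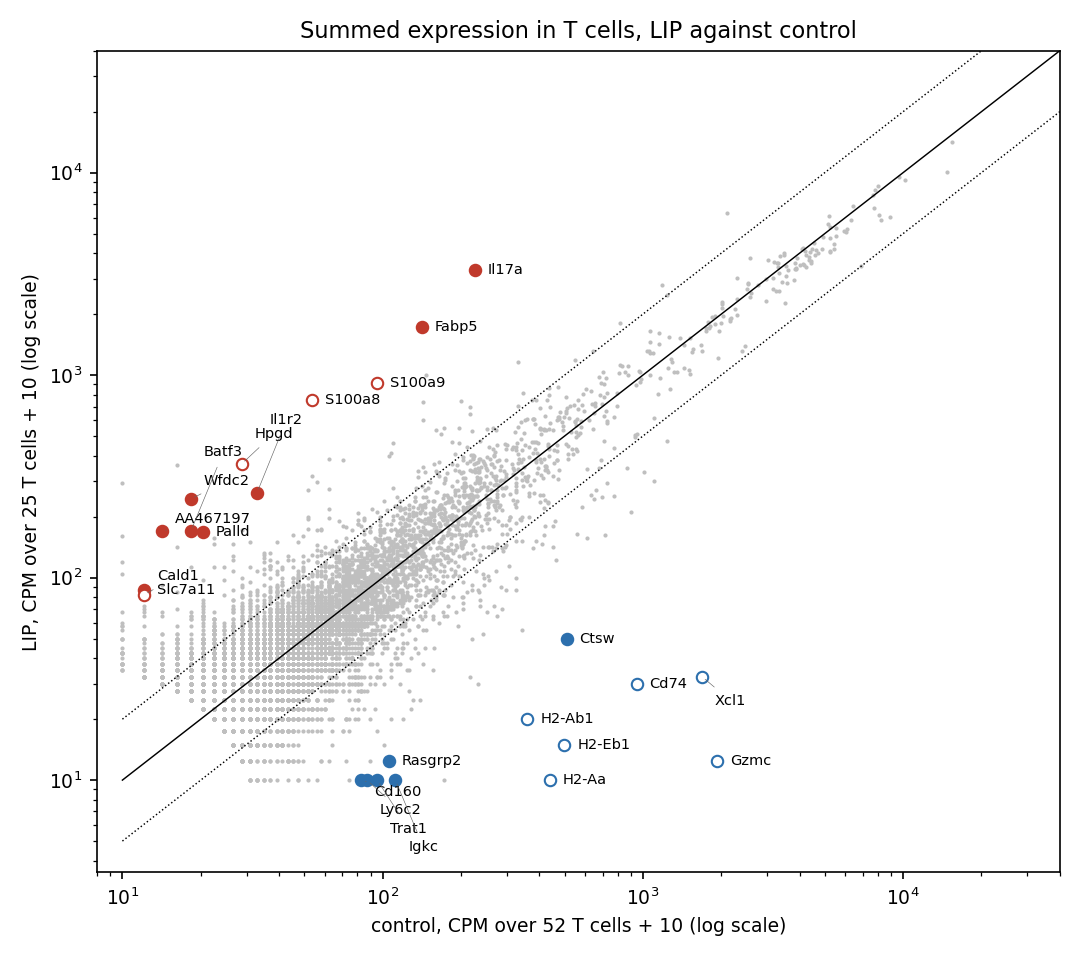
CPM summed over 25 LIP T cells (vertical axis) against 52 control T cells (horizontal axis), each plus 10 on a log scale, for 7770 genes in grey. The 24 named genes are coloured, open where 1 cell held over 50% of the UMIs of the higher library, and dotted lines mark 2-fold; Il17a stands high in LIP on 12 cells, while Gzmc, Xcl1 and the MHC class II genes of control are open.

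Lowest in LIP were Gzmc, with 1 UMI against 925, and Xcl1, with 9 against 806. Their log2 ratios were -7.27 and -5.70, and single control cells held 56.3% and 66.4% of the control UMIs. H2-Aa, H2-Eb1, Cd74 and H2-Ab1, the MHC class II genes of antigen-presenting cells, followed, but 93.7% to 97.9% of their control UMIs lay in the 1 cell named above. Igkc, an antibody light chain, had 49 UMIs over 26 control cells and none in LIP, while B cell markers were 6291 CPM in other control cells against 216 CPM in other LIP cells; the part of free RNA was not tested. Ctsw, a protease of cytotoxic lymphocytes, had 16 UMIs in 8 LIP cells against 240 in 19 control cells (-3.35). Trat1, a receptor-associated adapter, had none against 41 UMIs in 13 cells, at least 11.4-fold lower, and Ly6c2, Rasgrp2 and Cd160 completed the 12.

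Of the 24 type 17 genes tested, 9 were higher in LIP T cells and 0 lower, where 7.19% of all genes were higher and 6.06% lower, with a median log2 ratio of 0.60 against 0.06 for all genes. With 3 or more rule genes 12 of 22 were higher and 0 lower, against 9.96% and 8.5% of all genes, at a median of 1.19 against 0.07. They were Il17a, Il17f, Rora, Il1r1, Blk, Zbtb16, Aqp3, Ltb4r1, Batf, Irf4, Tmem176a and Tmem176b. Blk, a kinase of gamma-delta T cells, had 20 UMIs in 8 LIP and 10 in 2 control Trdc-high cells, which is 136 against 116 CPM. Aqp3, a glycerol channel, had 32 in 8 and 6 in 2 (1.51), and Ltb4r1, the receptor of the lipid attractant leukotriene B4, 26 in 8 and 7 in 2 (1.03). Blk, Batf, Tmem176a and Tmem176b were within 2-fold in Trdc-high cells, at 0.21, 0.50, -0.41 and 0.16. In Trac-only cells Batf, Tmem176a and Tmem176b were past 2-fold higher in LIP, at 2.02, 3.21 and 1.79, and Blk had 6 UMIs in LIP against none in control. The LIP UMIs of Blk, Tmem176a and Tmem176b in Trac-only cells lay in 2, 3 and 3 of 9 cells. Of the 9 type 17 genes higher in all LIP T cells, 8 were higher within Trac-only and 8 within Trdc-high cells. Over all genes, 536 were higher within Trac-only and 492 within Trdc-high cells. How many genes were compared within each class is not given here, so no share can be set beside the 8. The 9 were chosen on the sum of these same cells, so the counts are a description only. The minimum of 10 UMIs was not applied to them within a class. In Trac-only cells Blk was under it, as were Zbtb16 with 2 UMIs against 1 and Il1r1 with 4 against none. Zbtb16, a factor of innate-like T cells, had 9 UMIs in 5 LIP Trdc-high cells and none in the control ones. In all T cells it had 11 UMIs in LIP and 2 in control. Other genes of the type 17 list stood lower in LIP within Trdc-high cells. Among them were Lgals3 (122 against 1455 CPM), S100a4 (1863 against 6529 CPM), S100a6 (3182 against 7332 CPM) and Il18r1 (3 against 8 UMIs). Within Trac-only cells Lgals3, S100a4, S100a6 and Il18r1 were higher in LIP. The list thus did not move 1 way within Trdc-high cells.

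TCR signalling genes stood the other way, with 0 of 15 higher and 10 lower (median -1.30), and 0 and 8 (median -1.02) with 3 or more rule genes, where 6.06% and 8.5% of all genes were lower. Lck had no UMI in the 10 LIP Trdc-high cells and 18 in 4 control ones, and in Trac-only cells its log2 ratio was -0.09, with 27 UMIs in 9 of 9 LIP and 103 in 35 of 38 control cells. Cd28 was at -0.87 in Trac-only cells, and Cd2, an adhesion receptor, was at -0.34. Skap1 and Fyb, adapters, were at -0.17 and 0.03. Within Trdc-high cells they stood lower in LIP, with no Cd2 UMI against 32 (at least 18.3-fold lower, 59.4% of the control UMIs in 1 cell), 5 against 27 of Skap1 (-2.88), 1 against 10 of Fyb (-2.91) and none against 3 of Cd28. Of all 10 genes lower in LIP T cells, 1 was past 2-fold lower within Trac-only cells (Lcp2, an adapter, with 2 against 21 UMIs, -1.27). Within Trdc-high cells 9 were lower, among them Cd28 and Themis on 3 and 4 control UMIs. There Cd5 went the other way on 3 UMIs against none. Over all genes, 560 were lower within Trac-only and 406 within Trdc-high cells. The number compared within each class is again not given, so no share can be set beside these counts. The 10 were chosen on the sum of these same cells, so the counts are a description only.

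The shares of all genes for the next counts were 7.19% higher and 6.06% lower, or 9.96% and 8.5% with 3 or more rule genes. Among naive genes 5 of 8 were lower and 0 higher (median -1.61), and 6 of 8 with 3 or more rule genes. Of type 1 and cytotoxic genes 7 of 15 were lower (Tbx21, Cxcr3, Gzmc, Nkg7, Xcl1, Klrd1 and Ctsw) and 2 higher (Gzma and Ccl5), and with 3 or more rule genes 9 of 13 were lower and 0 higher. Of the 7 lower genes, 0 were lower and 1 was higher within Trac-only cells (Gzmc, on 1 LIP UMI), and 7 were lower within Trdc-high cells. Over all genes, 560 and 406 were lower within these classes, out of a number not given here. The 7 were chosen on the sum of these same cells, so these counts are a description only. Gzma owed 89.4% of its 113 UMIs to 1 LIP cell with 2 rule genes. Ccl5 owed 85.6% of its 216 LIP UMIs to 1 cell, and with 3 or more rule genes it turned to lower in LIP, with 1 against 78 UMIs (-3.93). For the regulatory list 4 of 13 were higher (Il2ra, Ctla4, Tnfrsf9 and Areg) and 3 lower (Ikzf2, Gata3 and Tigit), and with 3 or more rule genes the same 4 were higher and Ikzf2 and Tigit lower among 12. Foxp3 itself had 6 UMIs in 1 LIP cell and 10 in 5 control cells. Of 16 resident and activated genes 1 was higher (Hif1a), near the share of all genes, and 5 lower, among them Nr4a3 (-2.64). With 3 or more rule genes the balance of this list turned, with 3 of 16 higher (Hif1a, Pdcd1 and Cxcr6) and 1 lower (Nr4a3). Coreceptors Cd8a and Cd8b1 were lower at -2.01 and -2.59, with 1 LIP cell holding all Cd8 UMIs, and both were lower with 3 or more rule genes too.

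The remaining lists gave smaller counts, several of them near the share of all genes called higher (7.19%) or lower (6.06%). Of 12 receptor and CD3 genes tested, which the rule in part used, Trdc was higher in LIP and Trac and Trbc1 were lower, and with 3 or more rule genes Trdv4 was higher too. Gata3 was the only gene of the type 2 list with enough UMIs, and it was lower (-1.39), but not past 2-fold with 3 or more rule genes (-0.63). Of 14 immediate-early and heat shock genes 0 were higher and 2 lower (Fos and Fosb), and with 3 or more rule genes 6 were lower. Cell cycle genes gave 3 of 9 higher (Mki67, Cdk1 and Ube2c), but with 3 or more rule genes 1 higher and 1 lower (Ube2c and Pclaf). The highest cell held 85.7%, 61.1% and 57.6% of the LIP UMIs of the first 3. With 3 or more rule genes it held 100% of the LIP Ube2c and 95.3% of the control Pclaf UMIs. Within Trac-only cells the same 3 genes were lower in LIP, and within Trdc-high cells 2 were higher. In control Trac-only cells the highest cell held 82.6% of 23 Mki67 and 90% of 10 Cdk1 UMIs, against 0 and 1 UMIs in LIP. Of 6 interferon-stimulated genes 0 were higher and 1 lower (Isg15), also with 3 or more rule genes. Of 12 chemokine and cytokine receptors 2 were higher (Ccr1 and Il1r2) and 2 lower (Il6ra and Il17ra), and with 3 or more rule genes 2 were higher and 4 lower, Il6st among them. Type 2 cytokines Il4, Il5 and Il13 were too sparse to compare, with Il13 at 2 UMIs in 1 LIP Trac-only cell. Of 4 sex genes tested 0 passed 2-fold, with Xist at 1 UMI in LIP and none in control T cells and the Y-linked Ddx3y at 28 and 56 UMIs.

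Cytokines that act on bone, neutrophils and epithelium were listed because the study concerns bone loss in periodontitis. Tnfsf11, which encodes RANKL, the factor that drives osteoclast formation, had 26 UMIs in 6 LIP T cells and 14 UMIs in 11 control T cells. Of these, Trac-only cells held 21 in 3 LIP cells (13, 7 and 1 UMIs) and 12 in 9 control cells, a log2 ratio of 2.40, with 61.9% of the LIP UMIs in 1 cell. LIP T cells held 44.1% of the Tnfsf11 UMIs of kept cells in that library and control T cells 63.6% in theirs, and macrophages of neither library held any (0). These shares rest on the 26 and 14 UMIs above, with 50% of the 26 in 1 cell. They also depend on how many cells of other kinds were captured, so they do not rank the sources of RANKL in the tissue. The 2 LIP cells with most Tnfsf11 differed otherwise, since the cell with 13 also held 8 Cd4 and 4 Ifng UMIs and the cell with 7 held 57 Il17a UMIs. Tnfsf11 was rare in Trdc-high cells, with 5 UMIs in 3 LIP and 1 in 1 control cell. Of 16 genes of this list tested 3 were higher in LIP (Csf1, Ccl3 and Ccl4) and 3 lower (Tnfsf14, Cd40lg and Il2). A LIP Trdc-high cell held 77.5% of the Ccl4 UMIs, and a different cell, which was Trac-only, held 69.2% of the Csf1 UMIs. With 3 or more rule genes 4 of 14 were higher (Tnfsf11 at 1.48, Tnfsf8, Csf1 and Ccl4) and 2 lower (Tnfsf14 and Cd40lg), where 9.96% and 8.5% of all genes were, against 7.19% and 6.06% in all T cells. Of the Tnfsf8 UMIs in LIP 75.5% were in 1 cell. Ltb, which encodes lymphotoxin beta, stood at 449 and 420 CPM in LIP and control T cells. Osm was sparse, with 4 UMIs in 4 LIP Trdc-high cells and none in control, and Csf2, the growth factor GM-CSF, had 7 UMIs in 2 LIP Trac-only cells and none in control. Ifng was found in 2 LIP Trac-only cells with 25 and 4 UMIs and in 4 control ones with 13 UMIs in all.

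Against the other kept cells of the same library, 254 of 7770 genes (3.27%) were at least 2-fold higher in T cells of both. The rule chose the cells on their UMIs, so this is a description of the label only. Cd3g led (796 and 1138 CPM against 1.48 and 2.01 in LIP and control), followed by Cd3d, Cd3e, Trbc1, Icos, Cxcr6, Trbc2, Lat, Il2rb, Ctla4, Cd247, Sh2d2a, Trac, Ltb and Zap70. Trac and Trbc1 were not used by the rule and were found in 11 and 15 of 25 LIP and in 41 and 30 of 52 control T cells. Trac was found in 2.31% and 1.44% of the other kept cells of LIP and control, and after thinning in 8.00% and 48.1% of T cells against 0.119% and 0.123%. Icos, a costimulatory receptor of activated T cells, was found in 18 of 25 and 26 of 52.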

How the data were processed

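Gingiva and alveolar bone surface of 5 pooled mice per library were digested and sequenced as 10x 3′ libraries. Per the methods and the matrix header, the authors aligned reads to mm10 and made the deposited UMI counts with Cell Ranger (3.1.0 in the header). The files still hold 1212 and 1169 barcodes, of which 936 and 883 passed the limits of 200 to 7500 genes, 60000 UMIs and 10% mitochondrial UMIs. Kept cells held 10560109 and 13407122 UMIs, and the 25 LIP and 52 control T cells 400879 and 480671. Symbols shared by several identifiers were kept apart by identifier.

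Counts were summed over cells of a class and divided by the class's UMIs (CPM). A gene with at least 10 UMIs was called when levels, each with 10 CPM added, were at least 2-fold apart. Each condition was 1 library, cells were not taken as replicates, no p-value was computed, and Poisson, Clopper-Pearson and conditional binomial intervals (95%) cover counting error only. A gene at 0 was given a floor of 3 counts over its class. To compare shares, cells were thinned to 1000 UMIs. Scrublet (scanpy 1.11.5) was run per library. Python 3.11.15, numpy 2.4.6, scipy 1.17.1 and matplotlib 3.10.9 were used. The procedure was tested on simulated counts with counting error only. Variation between cells was not simulated, so that test does not cover genes whose UMIs lie in few cells.

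Members and lists were chosen with earlier results of these data known. The genes named were those of 15 functional and 14 marker lists, the 12 highest and 12 lowest of LIP against control (at least 30 UMIs and 5 cells), the 10 on each side of Trdc-only against Trac-only, and the 15 leading T cells against other kept cells (in at least 25% of T cells). B cells had Cd79a and another B cell gene, and macrophages at least 3 macrophage markers. Chosen after values were seen were the Trdc-high class, the split by number of rule genes as a second account of each comparison, the variable gene counts, the AGGTCA motif, the other cell types' values set beside a gene, and single genes outside those lists. Gene positions are from GENCODE on GRCm38, promoters from RefSeq on GRCm38.p6. Other rule strictness, mitochondrial and S100a8 and S100a9 limits, class definitions, added CPM, UMI minimum and removal of doublets were tried. Values of some listed genes are not reported here.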

Additional observations from a re-analysis of the deposited data

Results flagged for a closer look

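Lgals3, S100a4, Itgae and Tubb5 differed in opposite directions between LIP and control in the 2 classes of T cells, and these differences were not tested, as there was 1 library per condition. Lgals3, which encodes galectin-3, had a log2 ratio of -3.47 in Trdc-high and 1.96 in Trac-only cells, a difference of -5.43. For S100a4 these were -1.80 and 1.27, a difference of -3.07. Itgae, the epithelial integrin, stood at -3.17 and 1.69, a difference of -4.86, on 4 against 28 UMIs in Trdc-high and 8 against 7 in Trac-only cells. Tubb5, a tubulin gene, went the other way, at 2.36 and -1.12, a difference of 3.48. In the library with the higher level, 1 cell held 42.5% of its Trdc-high UMIs and 42.9% of its Trac-only UMIs.

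Outside the T cells as defined, a LIP cell left out for its S100a8 and S100a9 UMIs held 222 Il17a UMIs, and 21 kept LIP cells with 1 or 0 rule genes held 1 Il17a UMI each. The control library had 1 such cell.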

How the results depend on the processing

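Trdc-only cells took a larger share in LIP than in control under every alternative run, at 40.0% to 48.0% of LIP and 10.9% to 14.3% of control T cells. The count of genes higher in Trdc-only cells (428) moved under the most settings. It was 161 with 3 rule genes, 187 at a mitochondrial limit of 5%, 162 without doublets and cells mixed with another type, 229 with the class set by the majority of receptor UMIs, and 690 without a minimum of UMIs. Genes higher in T cells than in other kept cells (254) were 420 with 3 rule genes and 478 without doublets and mixed cells. The amount added moved every count. With 1 CPM added, 964 genes were higher and 853 lower in LIP, 657 higher in Trdc-only, 405 in Trac-only and 445 in T cells, and with 50 CPM added these were 103, 99, 90, 63 and 97. The share of T cells in LIP was 4.20% over cells under 2% S100a8 and S100a9, a denominator chosen after seeing the data. In direction, Krt14 turned from higher to lower in LIP without doublets and mixed cells (-1.99) and within Trac-only cells (-2.55), Gzmc was at 1.21 within Trac-only cells on 1 LIP UMI, and Ccr7 was at 2.53 within Trdc-high cells on 7 UMIs of 1 LIP cell. With 3 rule genes, Ccl5 turned from 1.67 to -3.93 and Mki67 from 1.19 to -0.55. The cause was not tested. No paired analysis was possible because each condition had 1 library. The number of cells and the single library per condition limit these values.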
